A study of Mus musculus with 12 samples.

Results

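Grip2, Nrip2, Susd5, Lrrc10b and Cyp2e1 are 5 genes, out of the 11716 genes tested here, that were picked because their signal was much lower in brain vessels of Notch3 knockout mice. They were chosen from earlier results of these same arrays as genes of vessel mural cells or genes of little-known function, so their loss in the knockout is how they were found and is given below as a description, with no test. They are read by 8 of the 34945 probe sets that name exactly 1 gene once control probe sets are left out: 1 each for Grip2, Lrrc10b and Cyp2e1, 2 for Susd5 and 3 for Nrip2, and all 5 genes passed the filter on dim probe sets. The material was microvascular fragments, short pieces of small vessels with the cells attached to them, from 3 Notch3 knockout and 3 control mice of the C57BL/6 strain at an age of 2 months, and its RNA was read on Affymetrix 430 2.0 mouse arrays. The 4 groups of 3 arrays were Notch3 knockout cerebellar, Notch3 knockout cerebral, control cerebellar and control cerebral fragments, the controls being wild-type littermates, and both regions of the mice were put on separate arrays. The labels name the knockout for the whole animal; which part of Notch3 is deleted, and whether other alleles are carried, is not given in the sources used here.

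Notch receptors are cut after they bind a ligand on a neighbouring cell, and the freed intracellular part joins the DNA-binding protein RBPJ to switch on genes of the Hes and Hey families and others. Notch3 is the form found mainly in mural cells, the smooth muscle cells of arteries and the pericytes of capillaries, and human NOTCH3 mutations cause the small vessel disease CADASIL. Of the 5 genes, Grip2 encodes a scaffold with several PDZ domains that is known for binding glutamate receptors and ephrins at neuronal synapses. Nrip2 encodes a nuclear receptor interacting protein, known as NIX1 in mouse, that dampens transcription by nuclear receptors. Susd5 encodes a membrane protein with a sushi domain and Lrrc10b a leucine-rich repeat protein, both with little-known function. Cyp2e1 encodes a cytochrome P450 that oxidises ethanol and other small molecules and is best known from liver.

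The 5 genes lie on 4 chromosomes, none of them chromosome 17, where Notch3 lies. In the RefSeq annotation of GRCm38.p6, Grip2 spans chr6:91761452-91843954, Nrip2 chr6:128397818-128409780, Susd5 chr9:114057354-114098733, Lrrc10b chr19:10455371-10457447 and Cyp2e1 chr7:140763819-140774990. RefSeq promoter windows of 300 bases, reaching from 250 bases before to 50 after an annotated start, were at hand for 4 of the 5 genes, and they are shown because the 4 genes moved together in the knockout. The windows are chr6:91807344-91807643 on the minus strand for Grip2, which lies inside the annotated span of the gene, chr9:114057104-114057403 on the plus strand for Susd5, chr19:10457398-10457697 on the minus strand for Lrrc10b and chr7:140763569-140763868 on the plus strand for Cyp2e1. Capitals mark the letters GGGCGG, the core of the GC box, read on either strand, and TATAAA, the TATA box; the 2 do not overlap in these windows. Each sequence is written 5′ to 3′ on the strand of its gene.
Grip2: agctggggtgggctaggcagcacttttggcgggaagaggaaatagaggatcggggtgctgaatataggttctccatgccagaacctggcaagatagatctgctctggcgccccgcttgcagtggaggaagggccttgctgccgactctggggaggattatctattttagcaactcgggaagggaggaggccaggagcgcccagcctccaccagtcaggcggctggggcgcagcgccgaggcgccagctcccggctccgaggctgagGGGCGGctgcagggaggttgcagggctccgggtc
Susd5: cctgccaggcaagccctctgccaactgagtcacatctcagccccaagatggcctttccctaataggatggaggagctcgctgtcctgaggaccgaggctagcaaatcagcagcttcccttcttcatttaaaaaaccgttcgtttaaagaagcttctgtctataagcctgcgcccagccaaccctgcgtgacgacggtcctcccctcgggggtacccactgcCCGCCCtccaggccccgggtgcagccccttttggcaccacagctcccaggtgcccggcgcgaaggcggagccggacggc
Lrrc10b: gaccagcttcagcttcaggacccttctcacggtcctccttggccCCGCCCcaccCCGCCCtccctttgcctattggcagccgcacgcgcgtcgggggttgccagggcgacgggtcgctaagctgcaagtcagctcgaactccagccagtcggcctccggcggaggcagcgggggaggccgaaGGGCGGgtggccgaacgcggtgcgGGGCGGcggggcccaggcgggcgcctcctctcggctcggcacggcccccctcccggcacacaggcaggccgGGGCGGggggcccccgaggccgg
Cyp2e1: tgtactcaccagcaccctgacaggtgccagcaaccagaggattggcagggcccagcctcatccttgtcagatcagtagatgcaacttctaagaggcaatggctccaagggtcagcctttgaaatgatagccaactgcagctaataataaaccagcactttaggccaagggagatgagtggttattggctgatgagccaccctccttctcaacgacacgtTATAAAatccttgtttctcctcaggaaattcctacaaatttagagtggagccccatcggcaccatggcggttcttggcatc
The letters TGGGAA, the core that RBPJ prefers, occurred on neither strand in any of the 4 windows, while 25.6% of all 32851 promoter windows of this length held them. A CArG box, the site of serum response factor in smooth muscle genes, was likewise in none of the 4 and in 1.63% of all windows. GGGCGG occurred 5 times for Lrrc10b, once each for Grip2 and Susd5 and not for Cyp2e1, against 35.7% of all windows with at least 1. TATAAA was in the Cyp2e1 window alone among the 4 and in 13.6% of all. The E-box letters CANNTG were found at 2 places each for Susd5 and Cyp2e1, at none for the other two, and in 72.3% of all windows. The 4 windows also differed in composition, with 76.3% G and C for Lrrc10b, 64.3% for Grip2, 61.7% for Susd5 and 49.7% for Cyp2e1.

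Notch3 itself was checked first. Its brighter probe set read 3.15, 3.58 and 2.48 log2 in knockout cerebellar vessels, against 11.73, 12.02 and 11.78 in control cerebellar vessels, and 2.48, 2.48 and 3.15 in knockout cerebral vessels, against 11.32, 11.61 and 10.84 in control cerebral vessels. The arrays therefore matched their genotype labels, while the region labels cannot be checked with this gene. Knockout values lay around 3.27, the median of all values in the table. This median is used below as a mark of background because the table holds no detection calls. All levels below are on the log2 scale of 1 probe set, so a difference of 1 is a doubling, and the brightness of 1 probe set is not comparable with that of another.

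Grip2, the PDZ scaffold, read 7.26, 7.504 and 7.10 log2 in knockout cerebellar vessels, against 10.04, 9.81 and 10.38 in control cerebellar vessels. In cerebral vessels it read 7.05, 6.95 and 7.01 in the knockout, against 9.33, 9.74 and 9.11 in the control. The groups did not overlap in either region, with a gap of at least 2.06 log2 between the highest knockout and the lowest control array. The log2 difference was -2.79 (SE 0.18, n = 3 arrays per group) in cerebellar vessels, 6.92-fold lower, and -2.39 (SE 0.18) in cerebral vessels, 5.24-fold lower. About 14.5% and 19.1% of the control signal was left, and the knockout arrays stayed above the median of all values. Fragments are mixtures of cells, so here and below fewer cells of a type and less RNA per cell cannot be told apart.

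Nrip2 is the nuclear receptor partner. Its brightest probe set, 1433792_at, read 9.43, 9.34 and 9.45 log2 in knockout cerebellar vessels, against 11.87, 11.80 and 11.86 in control cerebellar vessels. In cerebral vessels the values were 8.68, 9.07 and 8.94 in the knockout, against 11.25, 11.58 and 10.88 in the control. The differences were -2.44 (SE 0.15), 5.41-fold lower, and -2.34 (SE 0.15), 5.06-fold lower, in cerebellar and cerebral vessels. Probe set 1433793_s_at gave larger differences of -3.37 (SE 0.21) and -3.78 (SE 0.21), or 10.3-fold and 13.8-fold, and 1452456_at gave -1.98 and -2.08 (SE 0.14 each). All 3 probe sets were thus lower in the knockout without overlap, but the fold depended on the probe set by more than the SE, and 7.27% to 25.3% of the control signal was left across probe sets and regions.

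Susd5, the sushi domain protein, had the widest spread among knockout arrays of the 5 genes on their brightest probe sets, with an SD of 0.90 in cerebellar and 0.24 in cerebral vessels. Its brighter probe set, 1438636_s_at, read 5.89, 7.13 and 5.38 log2 in knockout cerebellar vessels, against 9.15, 9.60 and 10.02 in control cerebellar vessels. In cerebral vessels it read 6.38, 6.68 and 6.20 in the knockout, against 9.23, 9.90 and 9.76 in the control. Knockout mouse 2 had the highest value of its group in both regions with this probe set, and in cerebellar vessels also with the other one, which read 6.40 there against 4.64 and 4.69 in the other knockout mice. That mouse was the only knockout without Xist, the transcript of the inactive X chromosome (2.87 and 2.85 log2 in cerebellar and cerebral vessels, against 12.9 to 13.1 in the other knockout arrays); the part of sex in its Susd5 value was not tested. The differences were -3.45 (SE 0.40), 10.96-fold lower, in cerebellar and -3.21 (SE 0.40), 9.26-fold lower, in cerebral vessels, and -2.90 and -2.48 (SE 0.45 each) with the dimmer probe set 1437387_at.

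Lrrc10b, the leucine-rich repeat gene, was at background in every knockout array. It read 2.51, 2.52 and 2.54 log2 in knockout cerebellar vessels, against 4.16, 4.90 and 7.01 in control cerebellar vessels. In cerebral vessels it read 2.52, 2.55 and 2.52 in the knockout, against 3.99, 5.21 and 4.57 in the control. All 6 knockout values lay below 3.27, so the folds are lower bounds, computed with knockout values raised to that median: at least 4.25-fold lower in cerebellar and at least 2.50-fold lower in cerebral vessels. The fitted differences were -2.83 and -2.06 (SE 0.58 each), an SE that pools control arrays with an SD of 1.48 and 0.61 and knockout arrays with one of 0.02 and 0.01. Control cerebellar mouse 3, the control mouse without Xist, stood apart at 7.01. The part of sex in it was not tested, and without it the cerebellar difference was -2.01 and the bound at least 2.40-fold, a value computed after the data had been seen.

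Cyp2e1, the cytochrome P450, read 3.54, 3.41 and 3.53 log2 in knockout cerebellar vessels, against 7.40, 7.39 and 6.29 in control cerebellar vessels. In cerebral vessels it read 3.30, 3.32 and 3.29 in the knockout, against 5.02, 7.35 and 7.00 in the control. Knockout values sat just above the median of all values and hardly varied, while control arrays spread widely, with an SD of 0.64 and 1.26 in cerebellar and cerebral vessels. The differences were -3.53 (SE 0.51), 11.6-fold lower, in cerebellar and -3.15 (SE 0.51), 8.87-fold lower, in cerebral vessels, folds that rest on a knockout signal barely above the background mark. Control cerebral mouse 1, at 5.02, was far below its group, and without it the cerebral difference was -3.87.

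**Figure D1:**
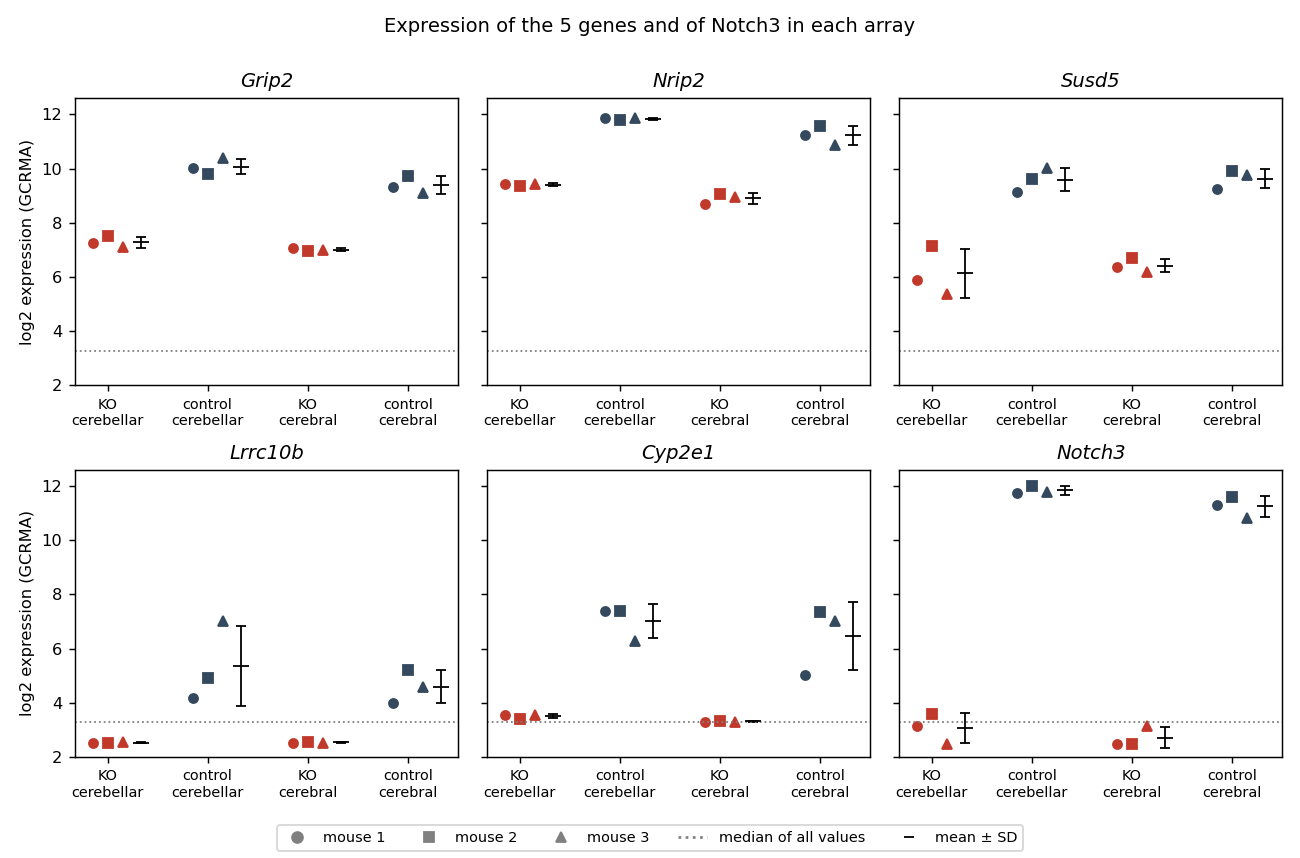
Each panel plots the log2 expression of 1 gene on its brightest probe set in all 12 arrays, with knockout (KO, red) left of control (dark) in each region, mouse by symbol, and the mean ± SD beside each group of 3. Grip2, Nrip2 and Susd5 keep a signal above the dotted median of all values (3.27) in the knockout, Cyp2e1 lies just above it at 3.29 to 3.54, and Lrrc10b lies below it at 2.51 to 2.55.

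Set against the whole table, 4 of the 5 genes could be placed. From the most lowered fitted difference down, Cyp2e1 stood 8th in cerebellar and 10th in cerebral vessels of 11716 genes, Susd5 9th in both, Grip2 14th and 28th and Nrip2 27th and 30th. Lrrc10b has no measured place, since its knockout values were at background. The place of Cyp2e1 rests on knockout values of 3.29 to 3.54, barely above the background mark of 3.27, so its knockout differences may be understated. All 5 were lower without overlap of the groups in both regions, as were 6.67% of all genes tested; the genes were chosen for this. The knockout difference between regions, cerebellar minus cerebral, was -0.40 for Grip2 (SE 0.25, 95% interval -0.96 to 0.16), -0.10 for Nrip2 (SE 0.22, -0.58 to 0.39), -0.38 for Cyp2e1 (SE 0.72, -1.99 to 1.22) and -0.24 for Susd5 (SE 0.56, -1.49 to 0.9998). Limma called 0 of these 4 at an adjusted p of 0.9992 each, and 0 had an unadjusted p under 0.05, while 0.0427% of all genes were called. This value is built from the knockout differences by which the genes were chosen. Its test therefore decides nothing about them, and the sizes are given as a description. The intervals of Cyp2e1 and Susd5 are wide enough to hold a difference of more than 1 log2. For Lrrc10b, at background in all knockout arrays, no such difference could be measured.

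**Figure D2:**
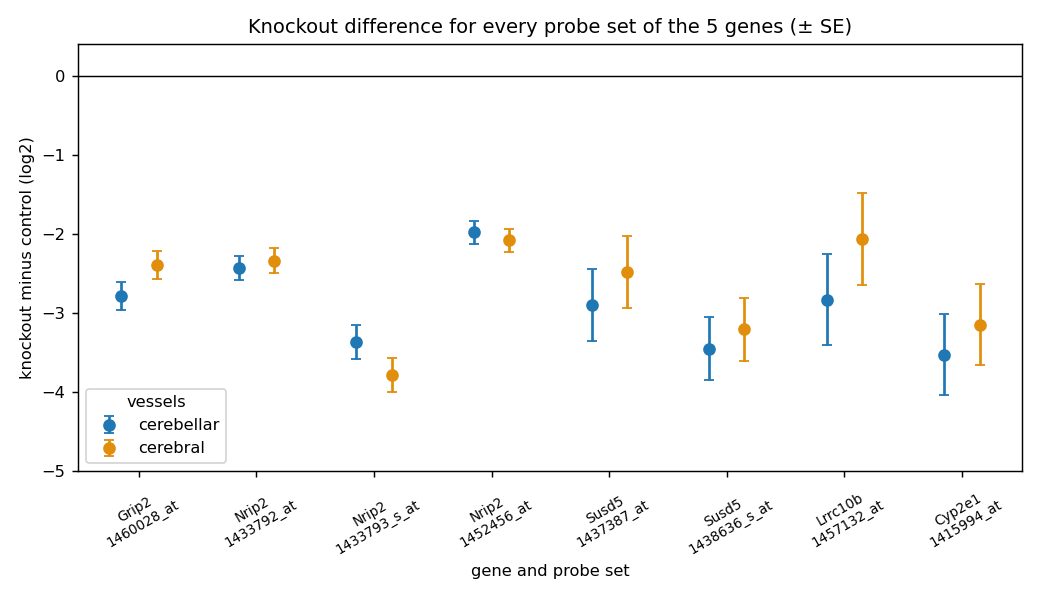
The plot shows the knockout minus control difference in log2 with its SE for each of the 8 probe sets, cerebellar (blue) beside cerebral (orange), 3 arrays per group. All 16 differences lie below 0, and the 3 Nrip2 probe sets span -1.98 to -3.78.

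Regional differences were not used to choose the genes, so they were tested. In control mice Nrip2 was 0.61 log2 higher in cerebellar than in cerebral vessels (SE 0.15, 95% interval 0.27 to 0.95) and Grip2 0.68 higher (SE 0.18, 0.29 to 1.08). In limma without a mouse term neither was called (adjusted p = 0.0770 and 0.0822), and 0 of the 5 genes were, although these 2 had an unadjusted p under 0.05 (0.00261 and 0.00308); 1.95% of all genes were called higher and 2.29% in either direction. The regions of a mouse are paired, and with the mouse as a random block both were called (adjusted p = 0.0222 for Nrip2 and 0.0370 for Grip2; 5.64% of all genes called higher), while with the mouse as a fixed block neither was (adjusted p = 0.0586 and 0.106). Without control cerebral mouse 2, which had the highest value of its group for both genes, both were called in the fit with no mouse term, at 0.78 (adjusted p = 0.0216) and 0.86 (adjusted p = 0.0387).

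In knockout mice Nrip2 was 0.51 log2 higher in cerebellar vessels (SE 0.15, 95% interval 0.17 to 0.85; adjusted p = 0.0799 in limma without a mouse term, 0.0277 with the mouse as a random block, 0.0677 as a fixed block). Leaving aside Lrrc10b, limma called 0 of the other 4 genes here without a mouse term, and 1, Nrip2, had an unadjusted p under 0.05; 3.84% of all genes were called higher and 6.8% in either direction, and 9.19% were called higher with the random block. When every probe set was tested on its own, Nrip2's 1433793_s_at was called higher in knockout cerebellar vessels, by 1.25 (SE 0.21, adjusted p = 0.00990), as were 2.83% of all probe sets, and by 0.83 in controls, where it was not called (adjusted p = 0.0950; 1.32% of all probe sets were). Without control cerebral mouse 2 or 3, which enter this comparison only through the pooled spread, Nrip2 was called (adjusted p = 0.0325 and 0.0289). Grip2 was higher by 0.28 in knockout mice (SE 0.18, -0.11 to 0.68, adjusted p = 0.424).

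Mouse by mouse, Nrip2 was higher in the cerebellar array in 3 of 3 knockout and 3 of 3 control mice with each of its 3 probe sets. For 1433792_at the step was 0.75, 0.27 and 0.51 log2 in knockout mice 1, 2 and 3, against 0.63, 0.22 and 0.98 in control mice. Grip2 was also higher in the cerebellar array of every mouse, by 0.21, 0.55 and 0.09 in knockout mice, against 0.71, 0.07 and 1.27 in control mice. Susd5 was higher in cerebellar vessels in 1 of 3 knockout and 1 of 3 control mice. Its mean regional difference was -0.29 in knockout mice (95% interval -1.16 to 0.59) and -0.04 in controls (-0.92 to 0.84). Lrrc10b and Cyp2e1 differed by 0.76 (-0.52 to 2.05) and 0.57 (-0.56 to 1.71) in controls. Those values rested on 1 array each, falling to -0.06 without control cerebellar mouse 3 and to -0.15 without control cerebral mouse 1. In the knockout the regional difference was 0.19 for Cyp2e1 (-0.95 to 1.32). That interval uses a spread pooled with the control arrays, whose SD was 0.64 and 1.26, against 0.07 and 0.01 in knockout cerebellar and cerebral arrays. Cyp2e1 was higher in the cerebellar array of 3 of 3 knockout mice, by 0.24, 0.09 and 0.24, close to background, and of 2 of 3 control mice. Lrrc10b was at background in both regions of the knockout.

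**Figure D3:**
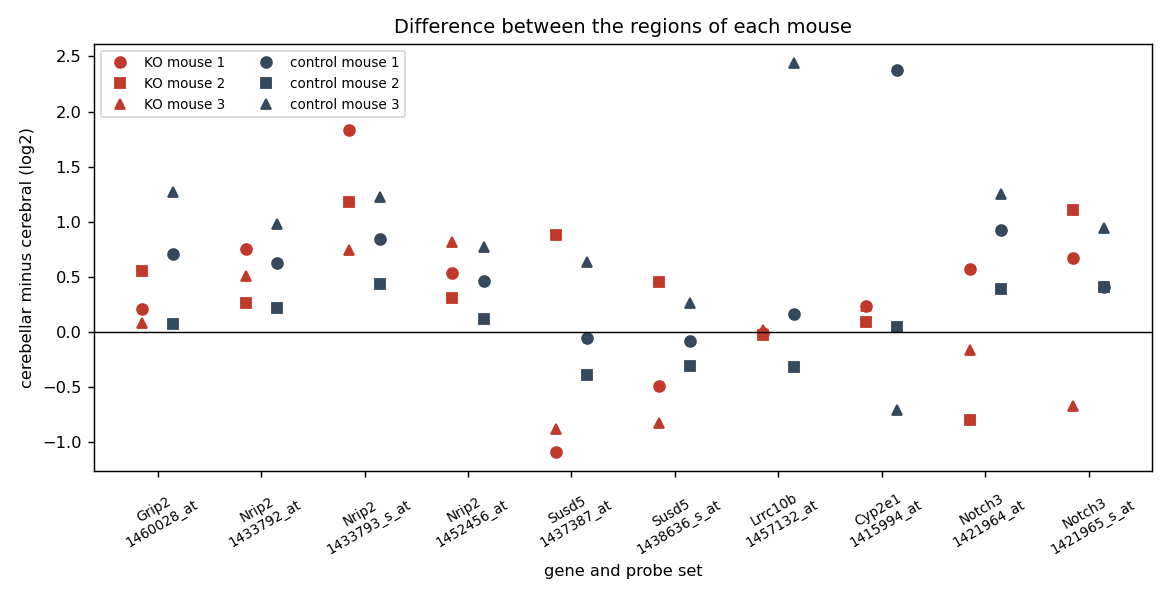
Points give the cerebellar minus cerebral difference in log2 within each mouse, knockout (KO, red) left of control (dark), for each probe set of the 5 genes and of Notch3. Grip2 and all 3 Nrip2 probe sets lie above 0 in all 6 mice, while Susd5 lies on both sides of 0 in each genotype.

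Pericyte markers were also higher in cerebellar vessels. Of 22 tested pericyte markers, 11 were called higher in cerebellar than in cerebral vessels of controls and 0 lower, where 1.95% of all genes were called higher, with a median of 0.49 log2 against -0.02 over all genes. Pdgfrb, the growth factor receptor that marks mural cells, was higher by 0.44 (adjusted p = 0.0135), and Notch3 read 0.59 higher but was not called (adjusted p = 0.388). The pericyte count was 2 without control cerebellar mouse 2, 5 without control cerebral mouse 1 and 6 without control mouse 3 in either region. The list's summed level on the linear scale ran from 150152 to 165313 units in control cerebellar and from 117697 to 127872 in control cerebral vessels. Such sums, here and below, lean on the brightest probe sets of a list and do not weigh its genes evenly. For pericytes the brightest was Rgs5, at a mean of 15.51 log2 in control cerebellar and 15.38 in control cerebral vessels. None of 29 smooth muscle markers was called in this comparison by limma (10 at an unadjusted p under 0.05; median 0.17). Fibroblast markers showed a like step, with 6 of 16 called higher and 0 lower (median 0.45). Their summed level was 22358 to 25316 units in control cerebellar, against 15000 to 19140 in control cerebral vessels. Of astrocyte markers 2 of 14 were called higher, of neuron markers 2 of 13, and 1 of 19 microglia and macrophage markers was called lower. The same comparison in knockout vessels called 16 of 22 pericyte markers higher and 0 lower (median 0.69), with 3.84% of all genes higher. It called 9 of 16 fibroblast markers higher and 0 lower (median 0.51) and 3 of 29 smooth muscle markers higher. Of astrocyte markers 5 of 14 were called higher, of neuron markers 5 of 13 higher and 1 lower. Of microglia and macrophage markers 13 of 19 were called lower (median -0.93). The part of the pericyte, fibroblast or other markers' level in the Nrip2 and Grip2 differences of either genotype was not tested.

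The name of mural genes could be checked only as far as whole fragments allow. Acta2, smooth muscle actin, averaged 14.44 log2 in knockout cerebellar and 14.83 in control cerebellar vessels, and 14.34 in knockout cerebral and 14.73 in control cerebral vessels. Pdgfrb averaged 14.03 in knockout cerebellar and 14.29 in control cerebellar vessels, and 13.37 in knockout cerebral and 13.85 in control cerebral vessels. Not all markers of these lists read so high. In knockout cerebral vessels the smooth muscle marker Kcnmb1 averaged 4.21 and the pericyte marker Ndufa4l2 5.58, against 5.94 and 7.13 in control cerebral vessels. Smooth muscle markers were lower in the knockout, with 20 of 29 called lower in cerebellar and 21 of 29 in cerebral vessels (median -0.94 and -0.86 log2), where 3.17% and 3.93% of all genes were called lower and the median of all genes was 0.01 and -0.01. The log2 difference was -2.51 in cerebellar and -3.26 in cerebral vessels (SE 0.19 each) for Casq2, which stores calcium in the sarcoplasmic reticulum, -2.45 and -2.47 (SE 0.37 each) for Ldb3, a protein of the actin-anchoring Z-disc, and -2.33 and -2.23 (SE 0.17 each) for Pln, the calcium pump inhibitor phospholamban. For Cnn1, the actin-binding calponin, it was -2.45 and -2.22 (SE 0.49 each), and its calls did not hold throughout. They were lost in cerebellar vessels without control mouse 2 or 3 or knockout mouse 1 or 3 (adjusted p = 0.0564 to 0.0841), and in cerebral vessels without any 1 cerebral array other than that of knockout mouse 3 (adjusted p = 0.0561 to 0.0789). Pericyte markers were called lower in 10 and 13 of 22 cases (median -0.47 and -0.64). The difference was -1.49 and -1.65 (SE 0.09 each) for Aoc3, an amine oxidase, -1.06 and -1.43 (SE 0.08 each) for Art3, -1.13 and -1.35 (SE 0.11 each) for the aminopeptidase Enpep and -1.29 and -1.55 (SE 0.19 each) for Ndufa4l2.

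The summed level of the smooth muscle list was 110640 to 119602 units in knockout cerebellar, against 161719 to 192288 in control cerebellar vessels, and 107125 to 116262 in knockout cerebral, against 150111 to 170059 in control cerebral vessels. The pericyte sums were 123862 to 133040 in knockout cerebellar, against 150152 to 165313 in control cerebellar vessels, and 96384 to 99814 in knockout cerebral, against 117697 to 127872 in control cerebral vessels. The part of these lists in the members' values was not tested. The differences of the 22 pericyte markers ran from -1.49 to -0.03 log2 in cerebellar and from -1.65 to 0.025 in cerebral vessels, and 12 and 9 of them were not called. Rgs5, Kcnj8, Abcc9 and Vtn were among those called in neither region, with differences from -0.15 to 0.025. Of 23 endothelial markers, 1 was called higher in cerebellar vessels, and limma called 0 in cerebral vessels (3 at an unadjusted p under 0.05). Microglia and macrophage markers were called higher in 7 of 19 cases in cerebral vessels, where 2.45% of all genes were. That count was 0 without control cerebral mouse 2 or knockout cerebral mouse 3, 1 without mouse 1 of either cerebral group, and 3 or 4 without control cerebellar mouse 1 or any 1 of the knockout cerebellar mice. Their summed level was 116228 to 165356 units in knockout cerebral, against 73116 to 104471 in control cerebral vessels, and their part in the members' values was not tested. In cerebellar vessels limma called 0 of the 19 (1 at an unadjusted p under 0.05), beside 1.06% of all genes called higher. Neuron markers were called higher in 3 and lower in 1 of 13 cases in cerebellar and lower in 1 in cerebral vessels, and fibroblast markers higher in 4 and lower in 1 of 16 cases in cerebellar and higher in 3 and lower in 2 in cerebral vessels. Limma called 0 of 14 astrocyte markers (4 in cerebellar and 3 in cerebral vessels at an unadjusted p under 0.05) and 0 of 6 oligodendrocyte markers (0 and 1).

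The genes related to the 5 by name or family were examined next. They were listed by name, though with earlier results of these data known. Of 23 listed relatives 20 had a probe set that named 1 gene, 8 were tested and 12 were too dim. Grip1, the closest relative of Grip2, lay at 2.60 to 2.86 log2 on both probe sets in all 12 arrays, and Nrip3 at 2.49 to 3.11 on its 3, so both were at background whatever the genotype. Nrip1, a corepressor of nuclear receptors, was bright and differed by 0.13 (SE 0.10, adjusted p = 0.596) in cerebellar and 0.38 (SE 0.10, adjusted p = 0.0565) in cerebral vessels. Lrrc10, a heart muscle protein, had no probe set naming it alone here.

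Among relatives of Susd5, Susd2 was also lower in the knockout. This sushi domain membrane protein, used in human endometrium as a marker of perivascular stromal cells, read 5.27, 5.97 and 5.23 log2 in knockout cerebellar vessels, against 7.14, 7.03 and 8.004 in control cerebellar vessels, and 5.24, 5.28 and 5.73 in knockout cerebral vessels, against 6.55, 6.97 and 6.80 in control cerebral vessels. The groups did not overlap, and the difference was -1.90 (SE 0.28, limma adjusted p = 0.00290) in cerebellar and -1.35 (SE 0.28, adjusted p = 0.0177) in cerebral vessels. The cerebral call was lost without control cerebral mouse 2 (adjusted p = 0.0636) or 3 (0.0514) or knockout cerebral mouse 1 (0.0661). Susd3 was called higher in cerebral vessels by 2.16 (SE 0.48, adjusted p = 0.0263), with 7.35, 4.90 and 5.89 in the knockout, against 4.10, 3.40 and 4.17 in the control, and differed by 0.37 in cerebellar vessels (adjusted p = 0.782). The difference between regions was not called (-1.78, adjusted p = 0.9992), and the Susd3 call was lost without any 1 of the control cerebral mice (adjusted p = 0.0514 to 0.0866) or without knockout cerebral mouse 3 (0.0697). Susd4 and Susd6 were not called in either region, with differences from -0.32 to 0.29.

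For Cyp2e1, the tested relatives Cyp2d22, Cyp2j6 and Cyp2j9 differed by 0.05, -0.04 and 0.15 in cerebellar and by -0.26, -0.21 and -0.18 in cerebral vessels, with none called. Of 11 genes for electron donors of P450 enzymes and for ethanol metabolism, limma called 0 in either region (1 in cerebellar and 2 in cerebral vessels at an unadjusted p under 0.05), with medians of 0.05 and 0.02 log2. Of 16 tested partners of GRIP proteins, 1 was called higher and 1 lower in each region. Of all genes 1.06% were called higher and 3.17% lower in cerebellar and 2.45% and 3.93% in cerebral vessels. A count of 1 gene is too small to set against these shares. Efnb1, an ephrin ligand, differed by 0.37 (SE 0.08, adjusted p = 0.0273) in cerebellar and 0.31 (SE 0.08, adjusted p = 0.0459) in cerebral vessels. Its cerebellar call was lost without any 1 cerebellar array other than control mouse 2 (adjusted p = 0.0655 to 0.0979), and its cerebral call in 10 of the 12 runs without 1 array (adjusted p = 0.0593 to 0.139) and with the mouse as a random block (adjusted p = 0.0512). With the mean of its probe sets neither was called (adjusted p = 0.0998 and 0.122). For Cspg4, the NG2 proteoglycan of pericytes that binds GRIP1, the difference was -0.66 (SE 0.15, adjusted p = 0.0388) in cerebellar and -0.91 (SE 0.15, adjusted p = 0.00653) in cerebral vessels. Its cerebellar call was lost in 7 of the 12 runs without 1 array, those without cerebellar mouse 2 or 3 of either genotype, control cerebral mouse 1 or 3 or knockout cerebral mouse 2 (adjusted p = 0.0518 to 0.139).

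**Figure D4:**
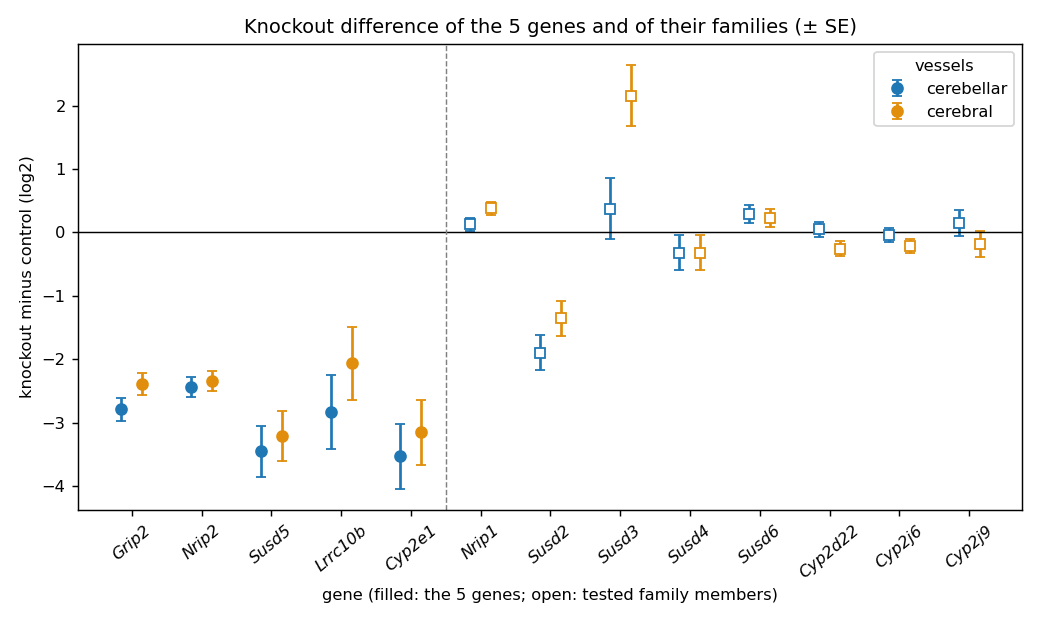
The plot sets the knockout minus control difference in log2 with its SE for the 5 genes (filled) beside that of the 8 tested relatives by name or family (open), cerebellar in blue and cerebral in orange. Susd2 at -1.90 and -1.35 is the relative with the lowest values, and the tested Nrip and Cyp2 relatives lie between -0.26 and 0.38.

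Genes of the Notch pathway were counted in the same way. Of 25 tested besides Notch3, 3 fell and 1 rose in cerebellar vessels, where 3.17% of all genes were called lower and 1.06% higher, and 4 fell and 2 rose in cerebral vessels, where 3.93% and 2.45% were, with medians of -0.05 and 0.00. Nrarp, a target that feeds back on the Notch complex, read 10.42, 9.76 and 10.15 log2 in knockout cerebellar vessels, against 11.41, 11.33 and 11.66 in control cerebellar vessels, a difference of -1.36 (SE 0.18, adjusted p = 0.00171), and its cerebral difference was -1.07 (SE 0.18, adjusted p = 0.00690). Hey2, a transcription factor downstream of Notch, differed by -1.22 and -1.13 (SE 0.12 each) in cerebellar and cerebral vessels. Heyl, of the same family, differed by -0.75 and -0.74 (SE 0.16 each), calls that were lost without any 1 array of the region other than that of control mouse 1 (adjusted p = 0.0577 to 0.1196 in cerebellar and 0.0574 to 0.0781 in cerebral vessels). Other Hes and Hey genes were not called in either region. The cerebellar and cerebral differences were 0.13 and 0.14 for Hey1, -0.40 and -0.15 for Hes1 and 0.03 and 0.26 for Hes5. Notch4 was called higher in cerebellar vessels, by 0.50 (SE 0.09, limma adjusted p = 0.00774). Dtx4 rose by 0.92 (SE 0.23, adjusted p = 0.0409) in cerebral vessels. That call was lost in 11 of the 12 runs without 1 array, all but that without knockout cerebral mouse 2 (adjusted p = 0.0543 to 0.1154). Limma also called Numb (0.35, SE 0.08, adjusted p = 0.0205) and Dtx3 (-0.54, SE 0.11, adjusted p = 0.0190) in cerebral vessels. Both were left out of the runs without 1 array. The number of Notch pathway genes called lower was 2 in cerebral vessels without knockout cerebral mouse 1 and 5 in cerebellar vessels without control cerebral mouse 2.

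To describe which genes followed the 5 most closely over the 12 arrays, each gene was centred on its own mean and the root mean square (RMS) difference from each of the 5 was taken. The arrays share 6 mice and the 5 genes were chosen by genotype, so the likeness is a description with no test; the 5 genes and Notch3 were left out of the ranking, and distances among the 5 are given where named. Grip2, whose own values had an RMS of 1.34 log2 about their mean, was followed most closely by Gpr20, an orphan receptor (0.21), Slc4a3, an anion exchanger (0.22), and Kcnab1, a potassium channel subunit (0.22), with Nrip2 at 0.23. Nrip2 was closest to Slc4a3 (0.18), then Grip2 (0.23), Cdh6, a cadherin (0.25), and Pln (0.25). For Susd5 the nearest were C1s1, a complement protease (0.43), Srl, the sarcoplasmic reticulum protein sarcalumenin (0.48), and Gpr20 (0.49). Cyp2e1 had C1s1 (0.65), Htr1b, a serotonin receptor (0.69), and Gpr20 (0.69). Lrrc10b had Tesc, a calcium-binding protein (0.53), Pln (0.54) and Slc22a2, an organic cation transporter (0.55). The distance between Cyp2e1 and Lrrc10b, 1.02, was the widest between any pair of the 5, and that between Grip2 and Nrip2, 0.23, the narrowest.

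Within groups the 5 genes did not all vary together. In control cerebral vessels mouse 2 had the highest value for each of the 5 and for Notch3, above the group mean by 0.34 for Grip2, 0.34 for Nrip2, 0.27 for Susd5, 0.62 for Lrrc10b, 0.89 for Cyp2e1 and 0.35 for Notch3. The smooth muscle markers of that array were above their group means by a median of 0.16, the pericyte markers by 0.10, and the microglia and macrophage markers below by 0.31 (-0.31); the part of these in the members' values was not tested. In control cerebellar vessels mouse 3 was highest for Grip2 (0.30 above the mean), Susd5 (0.43) and Lrrc10b (1.65) and lowest for Cyp2e1 (-0.73), and the smooth muscle markers stood 0.14 above. Nrip2 varied there by no more than 0.05 from its mean. In the knockout, Lrrc10b and Cyp2e1 stayed within 0.09 of their group means in all 6 arrays, near background.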

How the data were processed

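Expression was measured in 12 arrays, 3 per group. The authors deposited log2 values, 1 for each probe set and array, with GCRMA 2.32.0 named in the submitters' processing notes; no further scaling was applied. Probe sets were named from GEO's platform annotation: of 45101 probe sets 34958 named 1 gene, 932 several and 9211 none, and 64 control probe sets were left out. Having 3 arrays in a group limits the precision.

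Probe sets stayed in if 3 or more of 12 arrays lay above 3.27, the table's median, and the brightest stood for its gene, giving 11716 genes. Differences were tested with limma 3.58.1 under R 4.3.3 (two-sided moderated test by lmFit and eBayes, 4 group means, 8 residual degrees of freedom, Benjamini-Hochberg adjustment over all genes, threshold 0.05; a gene past it is called). The steps were tested on simulated data. The members and the 12 gene lists were chosen with earlier results of these data known, and list members were counted without the 5 genes. The first 2 genes of each cell type list were planned as level checks, and of these only Acta2 and Pdgfrb are given as such. Also named were up to 4 called list members with the largest knockout effect, called relatives besides Grip1, Nrip1, Nrip3 and Lrrc10, and the 3 genes nearest each member. Others were named after their values were seen, and lists that were not led with are given by counts.

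Deviations from group means correlated between the regions of same-numbered mice of a genotype (r from 0.371 to 0.705), and the design text has both regions from the same mice, so the number was taken as the mouse, which no label states; with a random block the consensus correlation was 0.373. Across genotypes r ran from -0.166 to 0.259, so the number did not pair them. Alternatives covered filter, scaling, probe sets, variance model, arrays in the fit, blocks and leaving out each array. Probe-level background correction was not redone. Promoters came from RefSeq (GRCm38.p6); Nrip2 had no entry.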

Additional observations from a re-analysis of the deposited data

How the results depend on the processing

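The knockout differences of the 5 genes kept their direction in every setting run, and 83 of 86 values outside the runs without 1 array moved by less than the spread between replicates. The exceptions came with the mean of a gene's probe sets: -2.73 (cerebral) and -2.59 (cerebellar) for Nrip2 and -2.85 (cerebral) for Susd5, since the probe sets differ in fold. That count says little about robustness. Settings of filter, variance model, block or arrays in the fit cannot move a difference of group means in this balanced design. Only the scaling settings could move all 5 genes, and the mean of probe sets could act on Nrip2 and Susd5 alone. The filter at the 75th percentile removed Lrrc10b and Cyp2e1. The regional difference of Nrip2 in knockouts was called with that mean (0.77) and with the mouse as random replicate block (0.51); in controls Nrip2 (0.61) and Grip2 (0.68) were called with this block, and neither with the fixed one. Without 1 array these differences ran from 0.40 to 0.60, 0.43 to 0.78 and 0.53 to 0.86.

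Counts of called genes moved more. The region difference in controls gave 268 genes, and 160 with no filter, 627 with the replicate number as replicate block, 966 with the mouse as random and 915 as fixed replicate block, and 79 to 323 without 1 array. In knockouts 797 became 508, 1346, 1947 and 1723 under the same settings, 322 with only the 6 arrays compared, and 366 to 1099 without 1 array. The knockout effect gave 748 genes in cerebral vessels, 1127 with the replicate block, 310 with only 6 arrays and 439 to 870 without 1 array; in cerebellar vessels 495 became 302 to 496 without 1 array. The difference between regions gave 5 genes, 2 with no filter, 0 by limma with the stricter filter and 1 to 20 without 1 array. Fewer genes or arrays enter some of these settings; the cause was otherwise not tested. Some list counts and list genes were run under these alternatives after the data had been seen. Signal near background limits Lrrc10b and Cyp2e1, whose true loss may exceed the values given.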
